A study of Drosophila melanogaster with 6 samples.

Results

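The transcripts described here are the 200 probe sets that stood highest in replicates 2 and 3 of the control embryos relative to control replicate 1. A probe set entered the ranking if its mean signal over the 3 control arrays was at least 100, which left 8298 of 18769 non-control probe sets. For each of them the log2(signal + 16) of control replicate 1 was subtracted from that of replicates 2 and 3, and the smaller difference was the score. The 200 highest scores are the members, and they ran from 0.42 to 0.93 with a median of 0.49, a 1.40-fold difference. The members were thus chosen by the signals of the control arrays alone, and their values there are a description. The other 3 arrays had no part in the choice.

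The series measured Drosophila melanogaster embryos of stages 12 to 13 on 6 Affymetrix Drosophila Genome 2.0 arrays, 3 for each of 2 kinds of mother. Control embryos (2xbcd) came from TT16 females with 2 copies of bicoid (bcd), and 6xbcd embryos from bcd+t8 females with 6 copies. Males of the TT16 line fathered both groups. Bicoid, a transcription factor laid down by the mother, directs the formation of anterior body parts. The mothers' stock, their bcd copies and the embryos' own genotype changed together between the groups and cannot be told apart. Each array carried RNA of more than 100 dechorionated embryos, collected over 90 min and kept for 8 h at 25 °C, and the design text pairs the groups by replicate and states independent RNA samples. RNA from whole embryos was pooled, so fewer cells of a type and less RNA per cell cannot be told apart.

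Of 29 gene lists searched, the one of Notch pathway and Enhancer of split genes held the most members. Notch is a receptor by which one cell stops its neighbours from taking its own fate, as when a single neural precursor is set aside from a proneural cluster. Its targets in the Enhancer of split complex, E(spl)-C, encode bHLH repressors of neural fate and small Bearded family proteins. Bearded proteins, also encoded by the Brd complex, bind the ubiquitin ligase Neuralized and so limit signalling by the ligand Delta. The proneural genes of the achaete-scute and atonal families act on the other side and promote neural precursor fate.

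The members were dimmer than the typical eligible probe set. On control replicate 1 their median signal was 338.55, and on control replicates 2 and 3 it was 492.9 and 505.05. The same medians over all 8298 eligible probe sets were 739.8, 740.1 and 745.8. Of the members, 196 (98%) had the authors' present call on all 6 arrays, against 96.8% of eligible probe sets. CG11300 had 2 present calls and CG42699 had 1, while CG30385 and Prdm13 had 4 each. No member was over 2-fold above replicate 1 in both other controls, and neither was any other eligible probe set (0 of 8298, 0.00%). The lowest scores inside the choice were those of Wdr59 and CG7460, both 0.42, and the scores just outside, of a second mbl probe set and of Rab23, were 0.42 and 0.41. The border thus runs through a continuous slope.

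On the 6xbcd arrays, which the rule did not use, the members were again lowest in replicate 1. The median signal of the members was 371.85 on 6xbcd replicate 1, 438.35 on replicate 2 and 486.5 on replicate 3. Replicate 1 held the lowest of the 3 signals for 156 of 200 members (78%), where it did so for 39.2% of eligible probe sets. With the arrays scaled to their bacterial spike-in controls instead, the shares were 36% and 12.1%. Without that scaling, replicate 2 was lowest for 24 members (12%, against 28.4%) and replicate 3 for 20 (10%, against 32.4%). Replicate 1 held the highest signal for 15 members (7.5%, against 31.4%), replicate 2 for 86 (43%, against 33.6%) and replicate 3 for 99 (49.5%, against 34.9%). Over all 6 arrays, control replicate 1 was lowest for 165 members (82.5%, against 20.8%), which the rule itself favours.

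**Figure D1:**
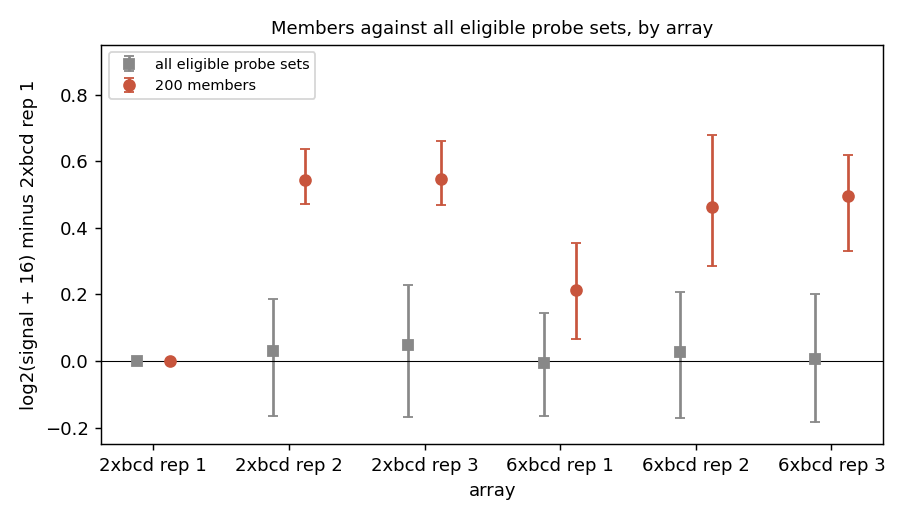
Median log2(signal + 16) of each array relative to 2xbcd replicate 1, for the 200 members and for the 8298 eligible probe sets, with bars from the lower to the upper quartile. The members' medians are 0.54 and 0.55 on 2xbcd replicates 2 and 3, which the rule used, and 0.21, 0.46 and 0.50 on the 6xbcd replicates, while eligible medians stay between -0.01 and 0.05.

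Replicate 2 was above replicate 1 of 6xbcd for 171 members (85.5%, against 53.7% of eligible probe sets), and replicate 3 was above it for 170 (85%, against 54.1%). The size of these steps was smaller than in the controls. The median member was 0.23 higher on the log2 scale in 6xbcd replicate 2 than in replicate 1 (1.17-fold) and 0.25 higher in replicate 3 (1.19-fold). The eligible medians were 0.02 and 0.03. Scaling the arrays to their bacterial spike-in controls turned the sign of the first median, to -0.07 among members and -0.28 among eligible probe sets. It left the second at 0.56 and 0.34. This scaling shifts all probe sets of an array by the same amount, so it could not change the gap between members and eligible probe sets. With 1 array per replicate no test of these differences is possible, and replicate 1 of both groups is a number shared in the labels.

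**Figure D2:**
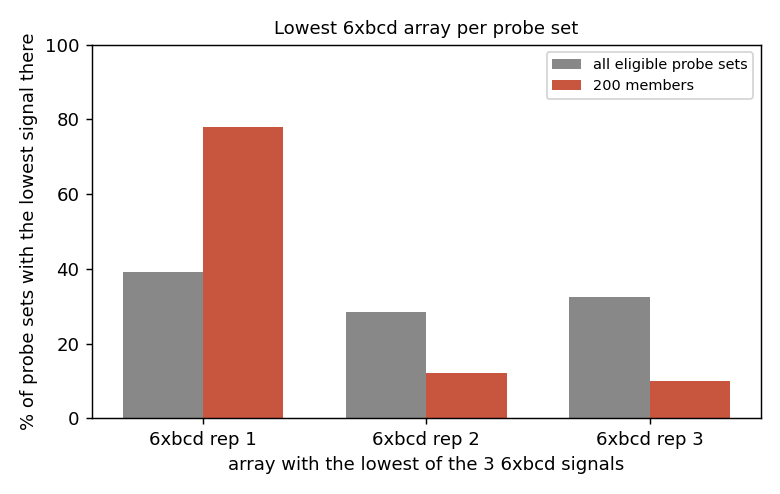
Percentage of probe sets whose lowest 6xbcd signal lay on each replicate, for members and eligible probe sets. Replicate 1 was lowest for 78% of members and 39.2% of eligible probe sets, shares that were 36% and 12.1% with spike-in scaling.

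A rank higher in the choice did not go with a larger step on the 6xbcd arrays. Among ranks 1 to 50 the 6xbcd replicate 1 was lowest for 33 of 50, among ranks 51 to 100 for 41, among ranks 101 to 150 for 38 and among ranks 151 to 200 for 44. In the next 200 probe sets, ranks 201 to 400, it was lowest for 154, so the pattern went on below the border. Within the members, the score and the smaller 6xbcd difference had a Pearson correlation of -0.04 over 200 probe sets, and over all 8298 eligible probe sets it was 0.66. These points share the same arrays, and the correlations are a description only.

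For 30 members (15%, against 2.86% of eligible probe sets) both 6xbcd differences from replicate 1 were at least as large as the lowest score in the choice. A single gene symbol was given for 24 of them. These included all 7 members from the Notch pathway list described below, the bHLH genes cato and l(1)sc, and sens. Over 2-fold steps were rare: 5 members were over 2-fold higher in 6xbcd replicate 2 than in replicate 1 (2.5%, against 0.398%), and 4 in replicate 3 (2%, against 0.349%). No member was over 2-fold lower in either, where 1.80% and 0.374% of eligible probe sets were. These counts depend on the scaling: with spike-in scaling, 2 members were over 2-fold higher in replicate 2 and 20 in replicate 3, and 6.5% had both differences past the lowest score.

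Among the Bearded family genes of the Brd complex on chromosome arm 3L, Brd itself had the highest score of all probe sets. Signals here and below are in the order of replicates 1, 2 and 3. The Brd signal was 1665.1, 3930.5 and 3177.0 on the 2xbcd arrays and 2276.7, 5268.6 and 4921.9 on the 6xbcd arrays. In both groups replicate 1 lay far below the others, by 1.20 and 1.11 on the log2 scale in 6xbcd. BobA, of the same complex, read 3918.0, 6884.8 and 5527.9 in 2xbcd and 4472.9, 7865.8 and 7103.3 in 6xbcd, with 6xbcd differences of 0.81 and 0.67. Ocho, another Bearded family gene and the one next to Brd in the gene order, read 1359.0, 2289.6 and 1940.2 and then 1341.8, 2103.0 and 2396.1. Every replicate 1 array of these genes was below all arrays of replicates 2 and 3. Tom, the remaining gene of the complex, was brighter and was no member, at 11614.8, 15247.2 and 13603.9 in 2xbcd and 12254.9, 14549.7 and 12909.6 in 6xbcd. A further member probe set matched both CG13465 and BobA, and the signals of these genes cannot be told apart there.

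In the Enhancer of split complex on arm 3R, 11 of 13 genes had a probe set of their own and 4 were members. E(spl)m4-BFM, a Bearded family gene, read 475.1, 960.7 and 756.5 in 2xbcd and 865.2, 1372.7 and 1566.2 in 6xbcd. Its neighbour E(spl)m5-HLH, which encodes a bHLH repressor, read 386.4, 660.3 and 613.5 and then 644.1, 1115.1 and 1155.4. Replicate 1 was the lowest array of its group for both genes, but the 6xbcd replicate 1 overlapped the range of the other controls.

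The bHLH repressor genes E(spl)m7-HLH and E(spl)mdelta-HLH showed the same order. Their log2 differences between the groups were 0.04 and 0.30, and neither was called. E(spl)m7-HLH read 3140.9, 4384.8 and 4357.3 in 2xbcd and 3046.7, 4545.3 and 4675.3 in 6xbcd. E(spl)mdelta-HLH read 1321.1, 2054.9 and 1820.3 and then 1457.7, 2399.2 and 2633.4. Both replicate 1 arrays of each gene lay below the other 4. That order was also seen in genes of the complex that were no members. E(spl)malpha-BFM read 2875.1, 3402.8 and 3314.3 in 2xbcd and 2601.1, 3624.1 and 3564.4 in 6xbcd, and E(spl)m2-BFM and the corepressor gene gro, at scores of 0.22 and 0.37, had both replicate 1 arrays lowest too. E(spl)m3-HLH differed by -0.03 and 0.09 between the 6xbcd replicates, and E(spl)m6-BFM, at a score of -0.60, was among the lower ranks.

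**Figure D3:**
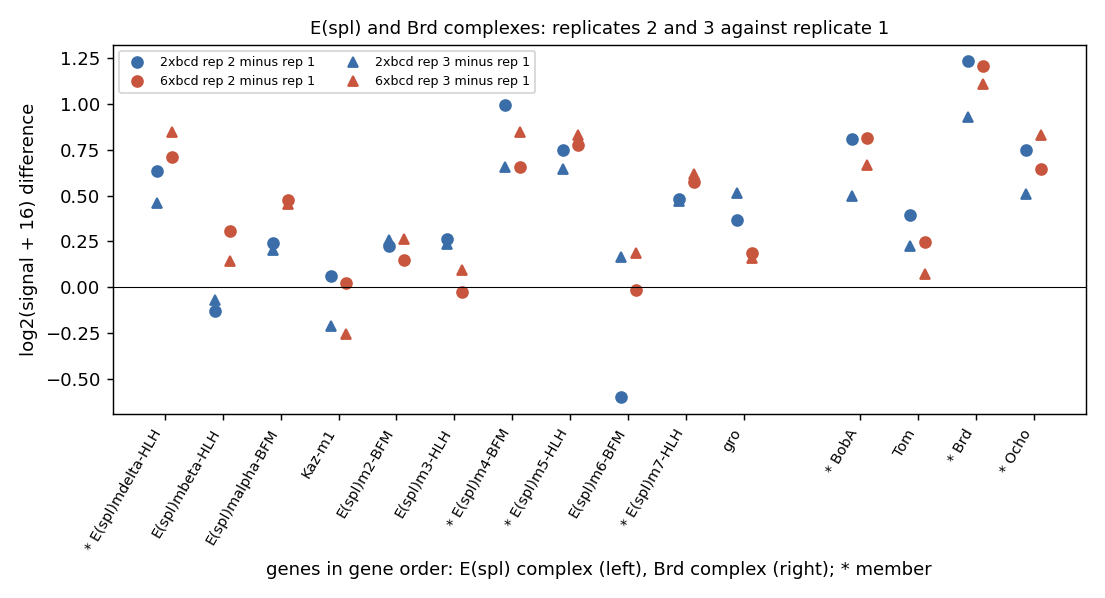
Differences of log2(signal + 16) of replicates 2 and 3 from replicate 1 in both groups, for the genes of the E(spl) and Brd complexes in gene order, with members starred. Brd stands highest, with 6xbcd differences of 1.20 and 1.11, and E(spl)m6-BFM, Kaz-m1 and E(spl)mbeta-HLH have negative scores.

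Over the whole list of Notch pathway and Enhancer of split genes, 18 were eligible and 7 of these were members. The list's median 6xbcd differences were 0.33 and 0.30, beside 0.02 and 0.03 over all eligible probe sets. The 6xbcd replicate 1 was lowest for 15 of 18, beside 39.2% of all eligible probe sets. The ligase gene neur, the protease gene kuz and the glycosyltransferase gene fng had scores of -0.01, 0.07 and -0.04 and were no members. The list was written with earlier results of these data known.

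Of 32 eligible neural precursor genes, 4 were members. The zinc finger gene sens, which maintains sensory organ precursors, read 471.4, 778.8 and 724.5 in 2xbcd and 529.0, 873.3 and 882.3 in 6xbcd. Next, l(1)sc, a proneural bHLH gene of the achaete-scute complex, read 164.6, 320.4 and 255.3 and then 190.0, 336.3 and 337.1. For both genes the replicate 1 arrays lay below all others, by 0.71 to 0.78 on the log2 scale in 6xbcd. The atonal relative cato, a bHLH gene of sensory neurons, read 180.4, 315.7 and 316.4 in 2xbcd and 147.1, 230.2 and 254.3 in 6xbcd. The Prdm family gene ham, which sets neuron identity in sensory lineages, had a smaller step in 6xbcd, at 232.8, 255.9 and 275.2, than in 2xbcd, at 194.9, 267.7 and 268.8.

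Other achaete-scute genes were no members. At rank 234, ac read 144.4, 195.6 and 209.9 in 2xbcd and 191.4, 246.3 and 292.5 in 6xbcd, and sc at rank 350 read 117.6, 154.7 and 161.8 and then 139.0, 222.4 and 213.1. The fourth gene of that complex, ase, had a score of 0.18. The median score of the 32 genes was 0.15, and the list's median 6xbcd differences were 0.19 and 0.32. The 6xbcd replicate 1 was lowest for 22 of 32, beside 39.2% of all eligible probe sets.

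**Figure D4:**
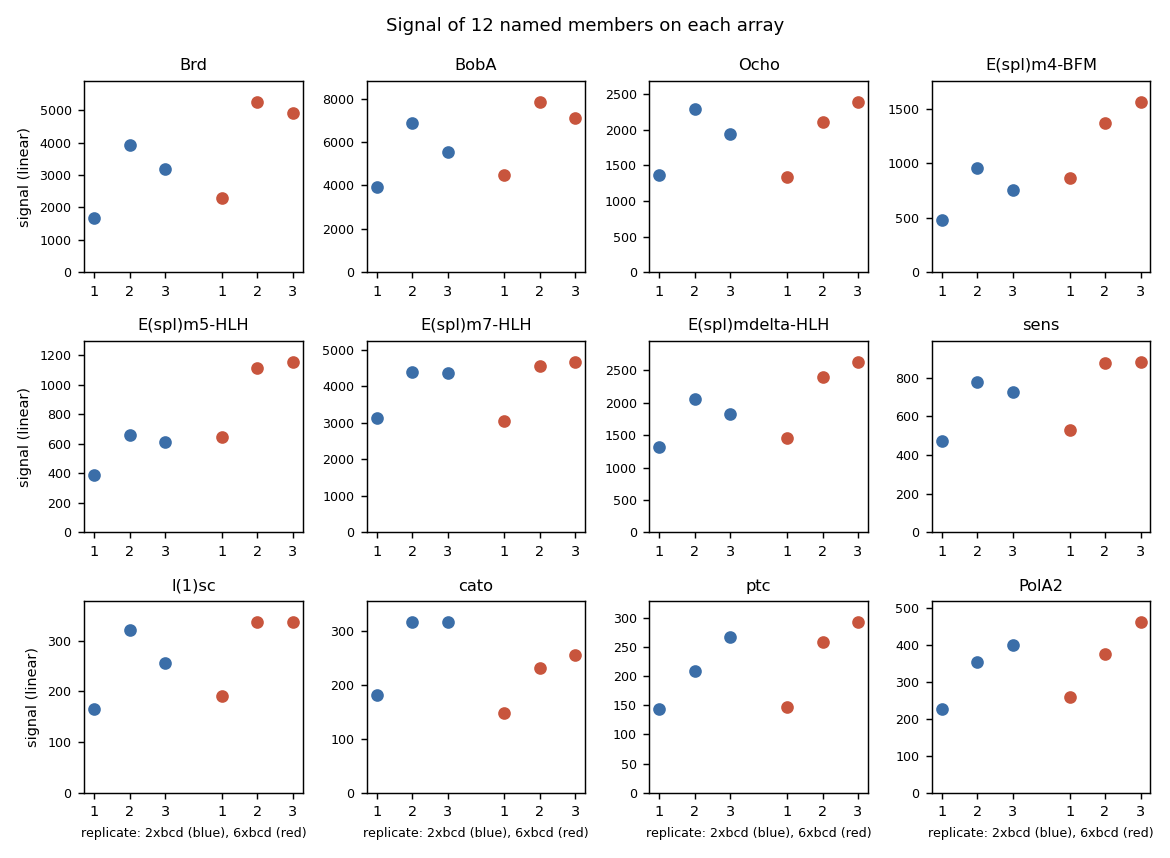
Signal of 12 named members on each of the 6 arrays, with a linear axis from 0 in each panel and 1 point per array. Every gene drawn, among them Brd, sens and l(1)sc, has its lowest signal of each group on replicate 1. Members without this order, such as Vrp1, are not drawn.

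Lists of patterning genes held 0 to 2 members each, where 200 of all 8298 eligible probe sets were members. Of 14 eligible segment polarity genes 1 was a member, ptc, the Hedgehog receptor, at 143.8, 209.4 and 267.9 in 2xbcd and 146.9, 258.2 and 293.3 in 6xbcd. Of 14 gap genes there were 2, both head gap genes. The homeobox gene oc read 394.8, 645.0 and 582.9 and then 428.9, 614.4 and 581.4, and its replicate 1 arrays were the lowest of the 6. The zinc finger gene btd read 172.1, 236.7 and 239.8 in 2xbcd but only 236.1, 257.3 and 276.1 in 6xbcd, differences of 0.12 and 0.21. Both are known targets of Bicoid in the early embryo, and neither was called between the groups (limma adjusted p = 0.962 and 0.482). No pair-rule gene (0 of 9) and no Hox gene (0 of 8) was a member, and neither was any eligible gene of the head and eye regulators (0 of 14), EGFR signalling (0 of 7), Wnt ligands and receptors (0 of 4), adhesion and guidance (0 of 27) or mesoderm regulators (0 of 15). At the share of all eligible probe sets, lists this short would hold few members or none, so a count of 0 does not set a list apart. The median scores of these lists ran from -0.11 for head and eye regulators to 0.27 for the Wnt list, beside 0.23 for the Notch list.

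Of 16 eligible genes of Dpp signalling, the BMP pathway of the fly, 3 were members. The T-box genes Doc1 and Doc3, which act in the amnioserosa and the dorsal mesoderm, were close to flat between replicates 2 and 3. Doc1 read 841.5, 1149.2 and 1185.1 in 2xbcd and 859.6, 1138.1 and 1150.7 in 6xbcd, and Doc3 464.8, 630.0 and 634.2 and then 548.1, 632.6 and 648.7. The metalloprotease gene tld, whose product frees Dpp from its inhibitor Sog, had 6xbcd signals of 188.4, 211.8 and 251.0 and differences of 0.16 and 0.39.

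The POU gene vvl, needed in tracheal and neural development, was the one gene with more than 1 member probe set. One of its probe sets read 174.1, 294.9 and 286.0 in 2xbcd and 123.8, 217.8 and 196.4 in 6xbcd. The other read 916.7, 1291.0 and 1975.5 and then 924.7, 1007.2 and 1380.3. Replicate 1 was the lowest of each group in both. The Iroquois gene mirr read 547.5, 884.0 and 928.2 and then 698.0, 906.3 and 802.4, with replicate 1 again lowest.

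The list of DNA replication genes gave 3 members of 28 eligible: PolA2, a subunit of DNA polymerase alpha, Prim2, a subunit of primase, and Orc1, the large subunit of the origin recognition complex. PolA2 read 225.0, 354.3 and 400.5 in 2xbcd and 258.3, 374.3 and 461.8 in 6xbcd. Prim2 read 246.3, 370.7 and 427.9 and then 310.6, 356.2 and 396.1. All 3 had their lowest signal of each group on replicate 1. Orc1 read 633.1, 984.6 and 965.3 in 2xbcd and 842.5, 1100.4 and 1003.9 in 6xbcd. The list is not complete: the replication genes PolE1 and RPA3, named after their values were seen, were members outside it.

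Across the 28 genes of the replication list the 6xbcd replicate 1 was lowest for 24, with median differences of 0.20 and 0.23. The share over all eligible probe sets was 39.2%, and most other pathway lists were above it too. Among them were EGFR signalling (6 of 7), gap (10 of 14), segment polarity (10 of 14), mesoderm (11 of 15), cell cycle (17 of 25) and chromatin genes (16 of 23). Of the pathway lists, only that of Hox genes (3 of 8) was below that share. Partners of PolA2 and Prim2 lay lower in the ranking, PolA1 at a score of 0.35 and Prim1 at -0.18. Of 25 cell cycle genes the member was cid, the centromeric histone H3 variant. The cid signal was 283.0, 405.4 and 408.1 in 2xbcd and 227.5, 255.8 and 409.2 in 6xbcd, so that only replicate 3 of 6xbcd reached the level of the later controls. Cenp-C, a centromere protein gene named after its values were seen, read 663.5, 917.3 and 1039.2 and then 696.4, 984.3 and 980.1. SA1, which encodes a cohesin subunit and was also named after its values were seen, had 6xbcd differences of 0.51 and 0.58.

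Among 23 genes of the chromatin list the members were E(z), the methyltransferase of Polycomb repressive complex PRC2, and the BTB gene mod(mdg4). The Polycomb group genes Pcl and phol, named after their values were seen, were members outside that list. E(z) read 341.9, 473.9 and 499.6 in 2xbcd and 399.8, 485.4 and 529.0 in 6xbcd. The array holds many probe sets for the isoforms of mod(mdg4), and the member one was nearly flat in 6xbcd at 608.7, 652.4 and 617.2. Tbp, the TATA-binding protein of the general transcription machinery, had one of the highest scores at 0.85. Its signal was 347.4, 686.5 and 640.8 in 2xbcd and 520.1, 687.4 and 609.7 in 6xbcd.

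Several of the highest scores belonged to genes in none of the lists. CG31125 read 190.0, 430.0 and 371.0 in 2xbcd and 260.2, 372.8 and 410.2 in 6xbcd. CG4440, one of the brighter members, read 6404.2, 11781.2 and 10022.6 and then 8010.4, 11983.3 and 11395.1. In both genes replicate 1 was lowest in each group. CG13454 and CG15480 had the largest steps from 6xbcd replicate 1 to replicate 2 after CG11300. CG13454 read 129.2, 380.1 and 382.0 in 6xbcd and 211.4, 306.5 and 369.7 in 2xbcd, and CG15480 read 229.7, 566.9 and 542.7 in 6xbcd and 265.1, 421.0 and 400.5 in 2xbcd. CG11300 was at 882.4 on 2xbcd replicate 2 and 272.6 on 6xbcd replicate 2 but between 29.0 and 66.9 elsewhere, and only those 2 arrays had a present call.

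Other members did not repeat their control pattern in 6xbcd. Vrp1, the verprolin gene of actin regulation and myoblast fusion, read 1900.2, 3190.1 and 3233.1 in 2xbcd and 2813.9, 2476.7 and 2677.1 in 6xbcd, with replicate 1 highest. The matrix metalloprotease gene Mmp2 read 81.7, 152.1 and 225.1 and then 125.9, 108.3 and 138.7. Coq7, an enzyme of ubiquinone synthesis, was level in 6xbcd at 333.7, 335.3 and 330.7. These genes thus differ between control arrays with no like order among the 6xbcd arrays.

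ATPCL, the ATP citrate lyase of lipid synthesis, read 106.1, 179.4 and 177.9 in 2xbcd and 110.1, 87.5 and 94.0 in 6xbcd. Egfrap had 6xbcd differences of -0.26 and -0.27, and NFAT of -0.22 and -0.05. The largest fall between 6xbcd replicates 1 and 2 was that of l(3)neo43, at 424.2 and 295.5. Inos, the inositol phosphate synthase gene, followed replicate 3 alone in 6xbcd, at 1417.5, 1366.1 and 3080.1, after 805.1, 1298.6 and 2412.2 in 2xbcd. Of the remaining members with the highest scores, Tet, mbl, Pak3, Lrt and TTLL12 had 6xbcd replicate 1 as their lowest array.

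For some genes a member probe set and another probe set of the same gene gave different orders. The member probe set of RpS7, a ribosomal protein gene, was dim at 98.7, 196.0 and 183.7 in 2xbcd, while another one read 29301.5, 33432.6 and 27952.7 and had a score of -0.07. RpS30 likewise read 187.4, 310.3 and 317.4 on the member probe set and 24309.0, 26808.3 and 23040.9 on the other. Among 36 member genes with a further probe set, the 71 other eligible probe sets had a median score of 0.07, and 39 of them were above 0. Whether the dim probe sets measure other isoforms was not tested.

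By position the members were spread over the chromosome arms much as the eligible probe sets were. Of 174 members with 1 gene symbol, 31 lay on X (17.8%, against 16.1% of eligible ones), 24 on 2L (13.8%, against 17.5%), 39 on 2R (22.4%, against 20.4%), 35 on 3L (20.1%, against 20.0%) and 45 on 3R (25.9%, against 25.3%). None lay on chromosome 4, which held 54 of 7298 eligible ones (0.74%), a share at which few or no members would lie there. In the annotation 3 pairs of member genes were direct neighbours: Brd and Ocho, E(spl)m4-BFM and E(spl)m5-HLH, and Gas41 and SA1. How many such pairs a like number of eligible genes would give was not counted. Gas41 was named for its position, and its 6xbcd signals were 1055.8, 1208.6 and 978.5, without the step of SA1.

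The array values give the setting for these differences. Present calls numbered 9751 to 10527 per array. The bcd transcript read 860.6, 546.4 and 301.0 in 2xbcd and 2335.1, 1497.4 and 1375.1 in 6xbcd and was higher in every 6xbcd array. The 18 bacterial spike-in probe sets were, by their median, 1.57-fold and 1.53-fold above control replicate 1 on control replicates 2 and 3. On the 6xbcd replicates they were 1.44-fold, 1.78-fold and 1.16-fold above control replicate 1. Probe sets for 18S ribosomal RNA were 2.19-fold and 2.84-fold above it on control replicates 2 and 3, and 1.34-fold, 1.04-fold and 2.17-fold on the 6xbcd replicates. The spike-in differences between the controls were as large as those of the members, and with arrays scaled to the spike-ins the members' median score was -0.15, beside -0.67 over all eligible probe sets. The direction against control replicate 1 thus depends on the scaling. The members were chosen by this score and the scaling shifts each array as a whole. Their median above that of the eligible probe sets under both scalings is therefore no separate result.

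The summed signals of cuticle and muscle markers moved the other way between the controls. The summed signal of 24 cuticle genes was 30743.7, 12119.2 and 9189.3 on the control replicates and 27718.9, 15318.7 and 26435.2 on the 6xbcd replicates, with Cpr72Ec, Cpr97Eb and Edg84A absent on every array. The sum of 16 muscle genes, none of them absent, was 32476.3, 18960.4 and 14318.4 and then 25291.5, 18856.4 and 27958.3. Both sums were high on 6xbcd replicate 3, where the members were high too. The sum of 17 maternal and germ cell genes was 14338.3, 12152.1 and 10554.2 and then 16005.6, 13790 and 13406.6. That of the 17 genes in the neuron list lay between 12204.1 and 15117.6 over all arrays, with nSyb, futsch, para and VGlut absent. The brightest genes in that sum were elav, fne and Nmdmc. Nmdmc encodes a folate enzyme and is no neuron marker, so the sum does not measure neurons alone. The median score of the list's 9 eligible genes was -1.05, beside -1.39 for cuticle, -1.83 for muscle and -1.07 for midgut genes. By contrast, the summed signal of midgut genes was 15503.8, 20711.7 and 16799.9 on the control replicates, higher on replicates 2 and 3. Of the 13 marker lists, which also covered glia, blood, midgut, fat body, salivary gland, heat shock, apoptosis and ribosomal proteins, only that of yolk and amnioserosa held a member, Doc1. Yp1, Yp2, Yp3 and zen of that list were absent on every array. Lists this short would hold few members or none at the share of all eligible probe sets, 200 of 8298. The part of these markers in the members' pattern was not tested.

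**Figure D5:**
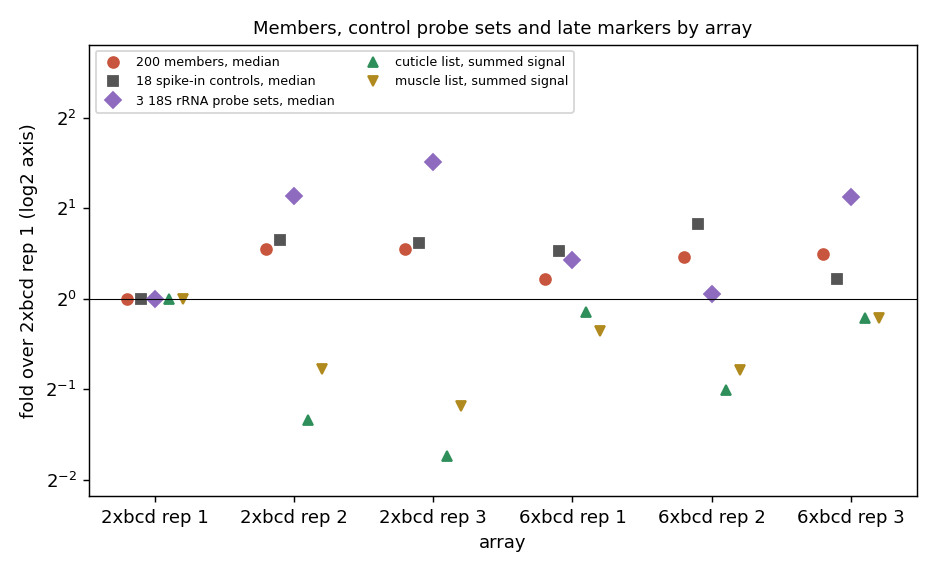
Fold over 2xbcd replicate 1 on a log2 axis for the member median, the spike-in and 18S ribosomal RNA probe sets and the summed late marker lists, by array. On 6xbcd replicate 3 the cuticle and muscle sums are near their level on 2xbcd replicate 1, while the member median is 0.50 above it on the log2 scale.

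The series asks which transcripts differ between embryos of 6xbcd and 2xbcd mothers. For the members this contrast shares the 3 control arrays with the rule, and its values are a description. In the limma fit over 10137 probe sets, with the replicate as a block, 198 members were tested and 4 were called higher in 6xbcd (2.02%, against 0.750% of tested probe sets), at a Benjamini-Hochberg adjusted p of 0.05. None was called lower (0, against 0.572%). At an unadjusted p under 0.05, 27 members passed (13.6%, against 14.9%), of which 17 were higher (8.59%, against 7.59%) and 10 lower (5.05%, against 7.32%). The difference was above 0 for 111 members (56.1%, against 52.7%). The median member difference was 0.03, beside 0.01 over all tested probe sets. It was 0.21 in pair 1, where the low control array lies, and -0.08 in each of pairs 2 and 3.

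The 4 calls included 3 genes of the Notch pathway list, or 3 of 18 tested from that list. The mean E(spl)m5-HLH signal was 972 ± 284 (SD, n = 3) for 6xbcd embryos against 553 ± 147 (SD, n = 3) for controls, a log2 difference of 0.78 with a standard error of 0.078 (limma adjusted p = 0.0207). E(spl)m4-BFM was at 1268 ± 362 (SD, n = 3) and 731 ± 244 (SD, n = 3), a log2 difference of 0.80 with a standard error of 0.111 (limma adjusted p = 0.0435). Brd was at 4156 ± 1636 (SD, n = 3) and 2924 ± 1154 (SD, n = 3), a log2 difference of 0.50 with a standard error of 0.067 (limma adjusted p = 0.0381). All 3 were higher in 3 of 3 pairs, and in the authors' deposited table each had an increase call in every pair. The arrays of all 3 genes overlapped between the groups.

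The remaining call, an unnamed probe set, had a mean of 3362 ± 254 (SD, n = 3) for 6xbcd embryos against 1920 ± 398 (SD, n = 3) for controls, a log2 difference of 0.82 with a standard error of 0.089 (limma adjusted p = 0.0221). It was 1 of 2 members whose 6xbcd arrays all lay above the controls (1%, against 6.94% of eligible probe sets), and CG12204 was the other. The rule spreads the members' control arrays and so itself makes such a gap rarer among them. All 4 calls were lost without the replicate block, with adjusted p of 0.758 for Brd, 0.427 for E(spl)m4-BFM, 0.395 for E(spl)m5-HLH and 0.0686 for the unnamed probe set. Brd alone lost its call with median scaling (adjusted p = 0.218) and with no filter on present calls (0.0573). All 4 were also lost without replicate 1 (Brd 0.142, E(spl)m4-BFM 0.178, E(spl)m5-HLH 0.0830, unnamed 0.0645) and without replicate 2 (0.237, 0.103, 0.163 and 0.125).

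BobA, sens and E(spl)mdelta-HLH did not pass the test, at log2 differences of 0.25, 0.20 and 0.30 (limma adjusted p = 0.213, 0.307 and 0.228). Outside the Notch list no named gene list had a member past the threshold. Among 30 tested neural precursor genes 1 was called lower, tap, and among 28 replication genes 1 was called lower, Psf3, and neither was a member. The members whose 6xbcd arrays all lay below the controls were 3 (1.5%, against 9.52%): CG42699, dj-1beta, which encodes a DJ-1 family protein, and an unnamed probe set. In the authors' deposited table, increase calls among the members numbered 8, 9 and 12 in pairs 1, 2 and 3 (4%, 4.5% and 6%, against 4.71%, 7.12% and 12.7%), and decrease calls 1, 13 and 11 (0.5%, 6.5% and 5.5%, against 6.83%, 4.89% and 10.6%). The rule itself puts control replicate 1 below the other controls. It thereby disfavours decrease calls in pair 1, increase calls in pairs 2 and 3, and groups that do not overlap. These shares are therefore no separate result.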

How the data were processed

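Signals are linear intensities that the authors made with GCOS, per the submitters' processing notes (version not given in the sources used here). After trimming 2% from either end, every array averages 500, so the authors brought all arrays to one level. The signals of both deposited tables are the same. One table adds, per the file headers, detection calls and the authors' comparison within each pair as a log2 ratio of 6xbcd over 2xbcd, a call of increase or decrease, and its p-value. For arrays, their number limits the precision.

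Of 18952 probe sets, 183 control ones were left out. Gene symbols come from the platform annotation, updated through RefSeq genes of the assembly Release 6 plus ISO1 MT (13543 of 13646 matched), which also gave chromosome and gene order. Of the 200 members, 174 had 1 symbol, 6 several and 20 none. The 29 gene lists have 611 entries, of which 602 carry a symbol in use now and 473 are measured by an unshared probe set.

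No normalization was added, and all differences are of log2(signal + 16), which understates changes of dim probe sets. Groups were compared with limma 3.58.1 under R 4.3.3 (lmFit, eBayes with an intensity trend, two-sided) on 10137 probe sets called present on 3 or more of 6 arrays, with the replicate number as a block, checked on simulated data. Residual degrees of freedom were 2, and prior ones 3.56. The design text calls the experiments paired. Same-numbered arrays' deviations from their group means correlated at 0.437, 0.385 and -0.190 across probe sets, and different numbers at up to 0.422, so the block rests on the design text. Other values used Python 3.11.15 with pandas 2.3.3, numpy 2.4.6 and scipy 1.17.1.

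The members and lists were chosen with earlier results of these data known. Named are the 30 members with the highest score, list members, called members, those next to the border, those with the largest and smallest 6xbcd steps, and genes with several probe sets. Members with both 6xbcd steps past the lowest score, neighbouring genes and non-members of a list were named with their values in view. Alternatives dropped the block or the trend, scaled by quantiles or medians, used offsets of 1 and 64, tested all probe sets or those present on every array, took the other table, left out each pair or array, or varied the member rule. Spike-in scaling was added after seeing the data. Promoter motifs were not analysed here.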

Additional observations from a re-analysis of the deposited data

How the results depend on the processing

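The count of 4 members called higher in 6xbcd was 0 with no replicate block, with no intensity trend and with spike-in scaling, and ran from 0 to 4 with 1 pair or array left out. It was 0 without replicate 1 or 2 or any array of theirs. Calls over all tested probe sets were 134, and 5 with no trend, 48 with spike-in scaling, 17 without replicate 1, 10 without replicate 2 and 270 without replicate 3. The median member difference between the groups ran from -0.07 to 0.08 with replicates left out. The 55 other named members were not called under any of the 20 alternatives. Median scaling moved the median of all tested probe sets by over 0.1, to -0.10.

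With spike-in scaling, 2 members instead of 5 were over 2-fold higher in 6xbcd replicate 2 than in replicate 1, and 20 instead of 4 in replicate 3. The members' median difference, 6xbcd replicate 2 minus 1, became -0.071 and that of 6xbcd replicate 3 minus 1 became 0.56, replicate 1 was lowest for 36% of members (12.1% of eligible probe sets), and 6.5% had both differences past the lowest score. Members chosen by the mean of both control differences, 137 of them shared with the choice used here, held 14 over 2-fold higher in 6xbcd replicate 2. Under the other forms of the rule and the other scalings these results kept their direction and stayed within 1.5 times for counts. The cause of these shifts was not tested. A floor of 50 in place of 100 kept 161 of the 200 members. The low number of arrays limits what can be told of steps of this size.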
